A study of Homo sapiens with 24 samples.

Results

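The proteasome genes described here were 35 genes chosen by symbol from the 21831 genes of each deposited table: 14 for the 20S core particle (PSMA1 to PSMA7 of the alpha ring and PSMB1 to PSMB7 of the beta ring), 17 for the 19S regulatory particle (6 ATPases PSMC1 to PSMC6 and 11 non-ATPase genes of the PSMD series) and 4 for other activators (PSME1 to PSME4). The rule used the symbols and no measured value, and all 35 passed the filter on low counts. The 26S subunits counted below are the 31 of these in the 20S and 19S sets. Some further genes of the 19S particle, such as ADRM1, were listed apart and are not in these counts. They were measured by RNA-seq in HBL-1 cells, a human lymphoma line of the activated B-cell subtype of diffuse large B-cell lymphoma, kept in RPMI-1640 medium with 20% serum, Pen/Strep and Plasmocin. The groups were cultures given 20 µM dimethyl fumarate (DMF) dissolved in DMSO for 6, 12, 24 or 48 h, and control cultures given DMSO for the same times, with 3 libraries in each of the 8 groups. DMF is a fumaric acid ester that modifies cysteines, among them those of KEAP1, and so releases NRF2, which drives antioxidant genes. All libraries came from 1 cell line, and the labels do not say whether replicates were separate cultures, so p-values measure the spread between these libraries, which may be technical.

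The proteasome degrades proteins that carry ubiquitin chains. Its 20S core is a stack of alpha and beta rings, with the proteolytic sites of PSMB6 (caspase-like), PSMB7 (trypsin-like) and PSMB5 (chymotrypsin-like) facing an inner chamber and the alpha rings forming the gate. The 19S particle binds ubiquitin, removes the chain and threads the substrate into the core with its ring of ATPases. Lymphoid cells can replace the catalytic beta subunits with the inducible PSMB8, PSMB9 and PSMB10 of the immunoproteasome, and cap the core with the PSME1-PSME2 (PA28) activator in place of the 19S particle. When proteasome activity falls short, mammalian cells raise transcription of proteasome subunits through NFE2L1 (NRF1), which binds antioxidant response elements like those of NRF2.

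The start sites of the members were examined for 3 motifs because these elements are known for the antioxidant and NFE2L1 response (TGACNNNGC), for interferon-responsive genes (the interferon element, GAAA followed after any 2 bases by GAAA) and for the NF-Y box of proteasome promoters (CCAAT). RefSeq promoter windows on GRCh38.p14, from 250 bases before to 50 after a start site, were matched by symbol for 30 of the 35 genes. The genes not matched were PSMA7, PSMB1, PSMB6, PSMB7 and PSMD4. Both strands were searched. The 30 genes had 36 windows, and shares are of windows. TGACNNNGC was found in 10 of the 36 (27.8%), 1 in each of 10 genes, against 13.35% of all 35116 windows. Those genes were PSMA4, PSMB3, PSMC4, PSMC5, PSMD1, PSMD3, PSMD12, PSME1, PSME2 and PSME4. The interferon element was found in 4 of the 36 (11.1%), against 3.57% of all windows, namely PSMA4, PSMB4, PSME1 and PSME2, and also in PSMB8 and PSMB10. CCAAT was found in 16 of the 36 (44.4%), against 34.61% of all windows. A match is a description of letters in the window, not evidence of binding.

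The windows of 6 genes, 300 bases each, are shown 5′ to 3′ in the direction of transcription, with motif letters in capitals. PSMD14 had the highest log2 fold change at 6 and 12 h, and its capitals are CCAAT and an overlapping CCAAT on the other strand. PSMD12 and PSMC4 are shown for TGACNNNGC in a gene of the non-ATPase set and of the ATPase ring, in PSMC4 as the complement. PSME1 and PSME2 are the activator genes that fell at both 12 and 24 h, with TGACNNNGC and the interferon element, which in PSME1 lies on the other strand. PSMB10, an immunoproteasome gene, is shown for the interferon element it has in common with them. The windows are chr2:161308175-161308474 on the plus strand, chr17:67366528-67366827 on the minus strand, chr19:39970915-39971214 on the plus strand, chr14:24135944-24136243 on the plus strand, chr14:24146561-24146860 on the minus strand and chr16:67936801-67937100 on the minus strand, named in the order PSMD14, PSMD12, PSMC4, PSME1, PSME2 and PSMB10.
PSMD14: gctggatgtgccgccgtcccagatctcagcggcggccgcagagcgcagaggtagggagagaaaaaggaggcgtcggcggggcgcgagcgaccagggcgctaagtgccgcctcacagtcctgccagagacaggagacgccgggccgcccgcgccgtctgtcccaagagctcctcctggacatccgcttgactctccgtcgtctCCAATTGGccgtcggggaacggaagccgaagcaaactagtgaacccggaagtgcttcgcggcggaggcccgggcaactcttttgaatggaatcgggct
PSMD12: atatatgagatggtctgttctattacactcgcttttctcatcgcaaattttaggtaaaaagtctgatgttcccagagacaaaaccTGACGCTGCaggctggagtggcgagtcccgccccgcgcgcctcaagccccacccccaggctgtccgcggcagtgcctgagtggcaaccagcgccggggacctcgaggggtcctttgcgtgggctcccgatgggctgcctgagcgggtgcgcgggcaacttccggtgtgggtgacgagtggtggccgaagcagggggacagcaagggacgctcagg
PSMC4: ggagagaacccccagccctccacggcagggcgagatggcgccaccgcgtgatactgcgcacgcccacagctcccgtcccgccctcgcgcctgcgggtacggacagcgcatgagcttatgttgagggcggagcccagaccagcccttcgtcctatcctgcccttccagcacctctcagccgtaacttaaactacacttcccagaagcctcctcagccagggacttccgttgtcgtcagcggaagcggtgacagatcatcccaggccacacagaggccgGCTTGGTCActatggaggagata
PSME1: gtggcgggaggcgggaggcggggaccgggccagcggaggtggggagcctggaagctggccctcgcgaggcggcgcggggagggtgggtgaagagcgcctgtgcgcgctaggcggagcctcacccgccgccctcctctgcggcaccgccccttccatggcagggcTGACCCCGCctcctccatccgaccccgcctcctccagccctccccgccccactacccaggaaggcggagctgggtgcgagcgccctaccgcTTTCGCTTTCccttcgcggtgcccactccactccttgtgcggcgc
PSME2: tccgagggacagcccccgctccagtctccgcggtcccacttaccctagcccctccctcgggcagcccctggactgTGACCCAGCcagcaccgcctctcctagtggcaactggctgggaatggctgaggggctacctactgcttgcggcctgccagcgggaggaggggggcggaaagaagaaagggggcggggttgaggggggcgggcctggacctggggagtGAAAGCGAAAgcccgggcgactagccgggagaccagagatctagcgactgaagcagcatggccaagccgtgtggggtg
PSMB10: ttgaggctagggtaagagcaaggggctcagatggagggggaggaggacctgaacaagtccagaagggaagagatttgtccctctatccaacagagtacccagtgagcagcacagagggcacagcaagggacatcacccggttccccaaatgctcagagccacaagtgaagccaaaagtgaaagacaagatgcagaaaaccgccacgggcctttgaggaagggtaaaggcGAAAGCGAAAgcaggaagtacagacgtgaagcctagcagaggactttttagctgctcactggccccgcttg

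Total expected counts were 2870751 in replicate 1 of DMF at 48 h and between 23097873 and 40906596 in the other libraries. The replicate 3 libraries of 12 h stood apart from the rest: their count-weighted effective length was 2121 bases in DMF and 1902 bases in control, against 2850 to 3157 bases in the other 22. In them PSMA7 had 1057 CPM in DMF and 937 CPM in control, against 463 and 481 CPM in the other DMF libraries and 299 and 329.9 CPM in the other control libraries of that time. In a fit of all 24 libraries they raised the common dispersion to 0.0521, against 0.00212 in a fit of 22 without them. The fit of 22 libraries is therefore used here and the counts of the fit of 24 are given beside it. The B cell markers CD79A, CD79B, MS4A1 and PAX5 were present in every library: CD79B had 1432 to 3550.2 TPM in DMF and 1763 to 4478 TPM in control, and PAX5 10.5 to 129 TPM in DMF and 8.21 to 189.6 TPM in control. The highest CD79B and the lowest PAX5 values were those of the replicate 3 libraries of 12 h. In the other 22 CD79B was at most 2491 TPM in DMF and 2148 TPM in control, and PAX5 at least 69.7 TPM in DMF and 115 TPM in control. T cell markers summed to at most 0.52 TPM in DMF and 0.72 TPM in control, macrophage markers to at most 10.4 TPM in DMF and 4.31 TPM in control, and epithelial markers to at most 5.39 TPM in DMF and 6.82 TPM in control. No marker was at 0 in all libraries. The antioxidant genes HMOX1 and NQO1 were higher in DMF at every time, HMOX1 by a log2 fold change of 2.09 at 6 h and 2.59 at 48 h. In bulk RNA, fewer cells of a kind and less RNA per cell cannot be told apart.

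DMF cultures held more mRNA of most 26S proteasome subunits than control cultures at all 4 times, by modest amounts. Of the 35 genes, 21 rose at 6 h, 29 at 12 h, 26 at 24 h and 24 at 48 h, at an adjusted p under 0.05. Of all 13606 genes tested, 23.8%, 24.1%, 29.5% and 33.6% were higher in DMF at these times. In the edgeR fit of 22 libraries none of the 35 fell at 6 h, nor did any at an unadjusted p under 0.05 or by DESeq2. An edgeR fit of the 6 h groups alone called 1 lower, with 2 lower at an unadjusted p under 0.05. In the fit of 22 libraries 2 fell at 12 h, 3 at 24 h and 1 at 48 h, and every one of these was an activator gene. Of all genes 23.4%, 23.8%, 27.9% and 30.9% were lower in DMF at the 4 times. The median log2 fold change of the 35 was 0.16 at 6 h, 0.34 at 12 h, 0.22 at 24 h and 0.30 at 48 h, while that of all genes lay between -0.003 and 0.02. No 26S subunit gene fell at any time in this fit, and 13 of the 31 rose at every time: PSMA3, PSMA7, PSMB2, PSMB5, PSMB6, PSMC1, PSMC2, PSMC5, PSMC6, PSMD2, PSMD4, PSMD11 and PSMD14. A further 12 rose at 3 of the 4 times. PSME1 and PSME2 rose at none. The count that fell was 1 at 12 h without replicate 1 or 2 of control or replicate 1 of DMF, 1 at 24 h without replicate 3 of control, and at 48 h 2 without replicate 3 of control and 3 without replicate 1 of DMF.

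The values of all DMF libraries lay above those of all control libraries for 28, 32, 25 and 22 of the 35 genes at 6, 12, 24 and 48 h, against 29.9%, 37.0%, 32.2% and 30.6% of all genes. The values of all DMF libraries lay below for PSME2 at 6 h, PSME1 and PSME2 at 12 h, PSME1, PSME2 and PSME4 at 24 h and PSME1 at 48 h, against 29.4%, 36.2%, 31.2% and 29.8% of all genes. In the fit of all 24 libraries 3, 9, 3 and 11 members rose and none fell, none at an unadjusted p under 0.05 either, against 5.03%, 7.37%, 7.81% and 13.3% of genes higher and 5.59%, 9.95%, 6.60% and 12.5% lower. The 3 of 35 that rose at 24 h are near the share of all genes. The members that rose in this fit were PSMD1, PSMD11 and PSMD14 at 6 h, PSMA1, PSMC2, PSMC6, PSMD1, PSMD3, PSMD6, PSMD11, PSMD12 and PSMD14 at 12 h, PSMC2, PSMD2 and PSMD11 at 24 h, and PSMC1, PSMC2, PSMC6, PSMD1, PSMD2, PSMD6, PSMD7, PSMD11, PSMD12, PSMD14 and PSME3 at 48 h. The medians of the members were 0.16, 0.14, 0.22 and 0.30 there, so that among the 4 times the median moved by over 1.5 times at 12 h only. The median of the 31 listed 26S subunits over control at 6 h was 1.498 in the replicate 3 library of DMF at 12 h, against 1.562 in that of control, the opposite order to replicates 1 and 2.

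The counts at 6 and 48 h also depended on the scale. On deposited TPM without further scaling, the median of all genes was shifted by -0.10 at 6 h, -0.07 at 12 h, -0.03 at 24 h and 0.17 at 48 h, and 6 members rose and 5 fell at 6 h (PSMC3, PSME1, PSME2, PSME3 and PSME4) while 34 rose and 1 fell at 48 h. Of all genes 10.2% were higher and 35.2% lower at 6 h on this scale, and 48.8% higher and 17.5% lower at 48 h. The median of the members on this scale was 0.03 at 6 h and 0.52 at 48 h. With TPM divided by size factors, an alternative chosen after seeing the data, 23 rose and none fell at 6 h, against 22.7% and 19.8% of all genes, and 24 rose and 1 fell at 48 h, against 32.2% and 31.1%. Values below are CPM, counts over the TMM-scaled library size, unless stated, and ± after a log2 fold change is its standard error.

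**Figure D1:**
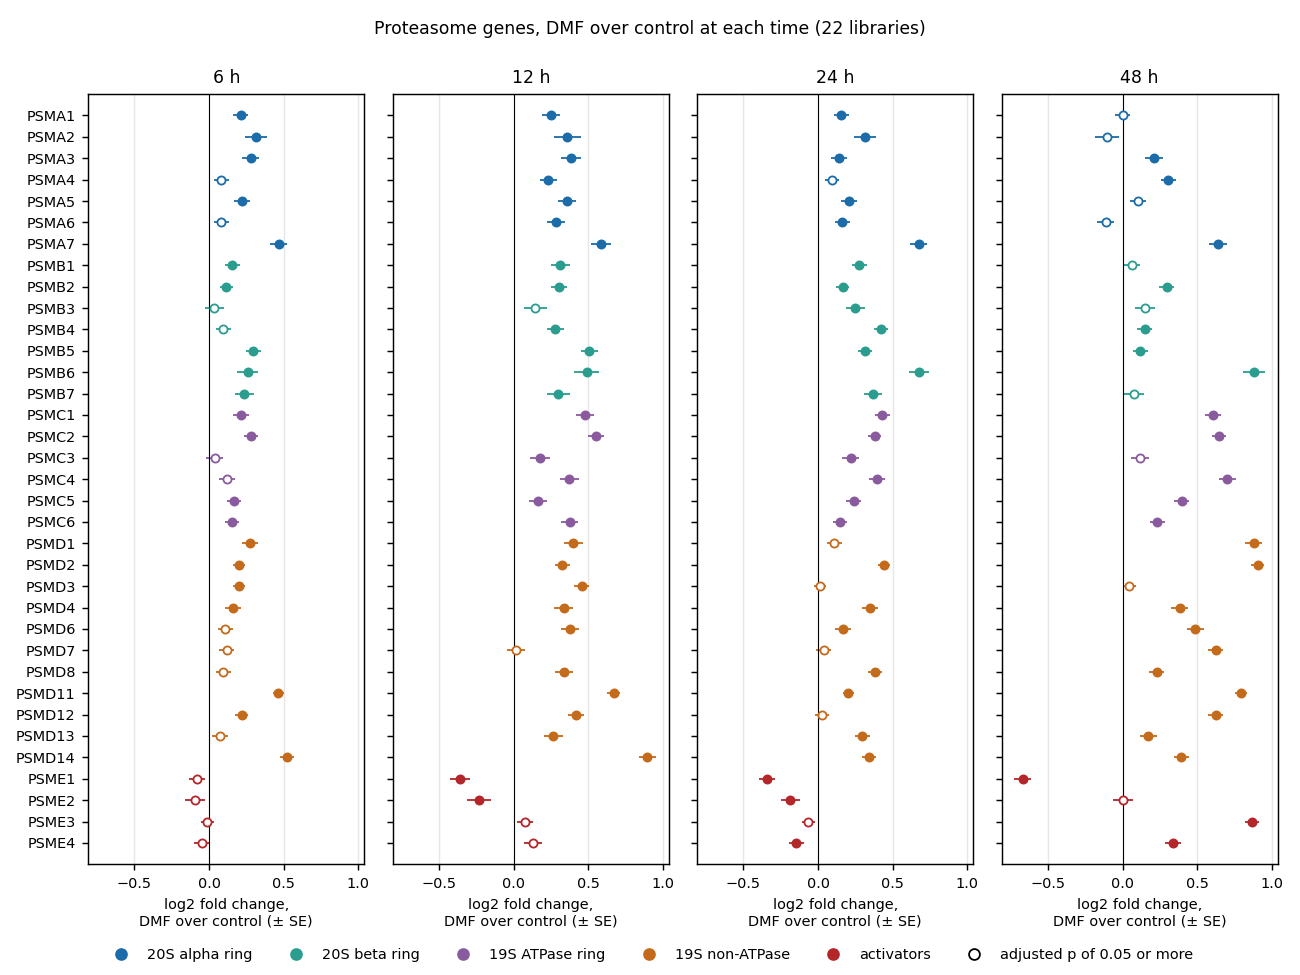
Log2 fold change of DMF over control (horizontal axis) for each of the 35 genes (vertical axis) at 6, 12, 24 and 48 h in 22 libraries, coloured by subcomplex, with bars for 1 standard error. Filled points passed an adjusted p of 0.05: 21, 29, 26 and 24 genes to the right of 0 at the 4 times, and only PSME1, PSME2 and PSME4 to the left.

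Genes of the alpha ring, which gates the core, rose in 5, 7, 6 and 3 of 7 at 6, 12, 24 and 48 h, with median log2 fold changes of 0.22, 0.36, 0.16 and 0.10. PSMA7 was the alpha gene with the highest fold change at each time. It had 343, 350.4 and 359 CPM in DMF libraries, against 253, 261 and 247 CPM in control libraries at 6 h, a log2 fold change of 0.47 ± 0.06 (adjusted p = 2.4e-07). At 12 h PSMA7 had 463 and 481 CPM in DMF libraries, against 299 and 329.9 CPM in control libraries, a log2 fold change of 0.59 ± 0.07 (adjusted p = 1.5e-07). At 24 h it had 455, 422 and 428 CPM in DMF libraries, against 267, 263 and 287 CPM in control libraries, a log2 fold change of 0.68 ± 0.06 (adjusted p = 2.7e-10). At 48 h the values were 323, 291 and 296 CPM in DMF libraries, against 191, 215 and 173 CPM in control libraries, a log2 fold change of 0.64 ± 0.06 (adjusted p = 7.4e-10). At each time every DMF library of PSMA7 lay above every control library in the fit of 22. In the fit of 24 its adjusted p was 0.52, 0.57, 0.23 and 0.180 at the 4 times. PSMA2 and PSMA6 had log2 fold changes of -0.10 ± 0.08 (adjusted p = 0.27) and -0.11 ± 0.05 (adjusted p = 0.066) at 48 h, which did not pass the test, after 0.36 ± 0.09 (adjusted p = 0.0017) and 0.29 ± 0.06 (adjusted p = 0.00041) at 12 h. Without replicate 1 of DMF at 48 h, the shallow library, both passed as lower at 48 h, with log2 fold changes of -0.17 and -0.14 (adjusted p = 0.046 and 0.040). PSMA6 also passed without replicate 3 of control at 48 h, at -0.17 (adjusted p = 0.0049), while on unscaled TPM both were higher in DMF.

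Beta ring genes rose in 5, 6, 7 and 4 of 7, with medians of 0.16, 0.30, 0.32 and 0.15. PSMB6, the gene of the caspase-like subunit (chr17:4796144-4798503, plus strand in GENCODE v29 on GRCh38), had the highest value of the ring at 24 and 48 h. At 24 h PSMB6 had 100.4, 89.4 and 88.9 CPM in DMF libraries, against 59.4, 56.0 and 59.1 CPM in control libraries, a log2 fold change of 0.68 ± 0.07 (adjusted p = 6.2e-09). At 48 h PSMB6 had 74.3, 82.5 and 84.7 CPM in DMF libraries, against 44.1, 51.8 and 38.1 CPM in control libraries, a log2 fold change of 0.88 ± 0.07 (adjusted p = 1.1e-10). In both, the lowest DMF library exceeded the highest control library. PSMB5, the chymotrypsin-like subunit, differed from PSMB6 in its course, with log2 fold changes of 0.30, 0.51, 0.32 and 0.12 at the 4 times. At 48 h PSMB5 had 72.1, 69.2 and 68.6 CPM in DMF libraries, against 61.4, 69.7 and 60.5 CPM in control libraries. The groups overlapped there, and the log2 fold change of 0.12 ± 0.05 (adjusted p = 0.046) was no longer past the threshold by DESeq2 (adjusted p = 0.065) or without any 1 of 11 libraries. PSMB4, a structural beta subunit, had 215, 201 and 208 CPM in DMF libraries, against 183, 203 and 174 CPM in control libraries at 48 h, which also overlapped, and a log2 fold change of 0.15 ± 0.05 (adjusted p = 0.014). It did not pass without replicate 3 of control at 48 h (0.11, adjusted p = 0.089).

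At 6 h the smallest values among the genes that rose were those of PSMB2, PSMC6 and PSMB1. PSMB2, a structural beta subunit, had 107, 108 and 106 CPM in DMF libraries, against 95.3, 102 and 98.8 CPM in control libraries, a log2 fold change of 0.12 ± 0.05 (adjusted p = 0.04). PSMC6, an ATPase, had 147, 144 and 143 CPM in DMF libraries, against 128, 133 and 129 CPM in control libraries, a log2 fold change of 0.15 ± 0.05 (adjusted p = 0.0096). PSMB1, also a structural beta subunit, had 204, 198 and 211 CPM in DMF libraries, against 185, 179 and 186 CPM in control libraries, a log2 fold change of 0.16 ± 0.05 (adjusted p = 0.015). None of the 3 genes overlapped between the groups, and their DMF libraries lay narrowly above. PSMB2 lost its call without any 1 of replicates 1 and 3 of control and replicates 1, 2 and 3 of DMF at 6 h (adjusted p = 0.062 to 0.17). PSMB1 lost it without replicate 2 of control (adjusted p = 0.059) or replicate 3 of DMF (adjusted p = 0.069). On unscaled TPM PSMB2 had a log2 difference of -0.026, PSMC6 0.02 and PSMB1 0.02, none of which passed.

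The 6 ATPases of the 19S base, which unfold substrates, rose in 4, 6, 6 and 5 of 6, with medians of 0.16, 0.38, 0.31 and 0.50. At 48 h the values ran from 0.12 ± 0.06 (adjusted p = 0.078) for PSMC3 to 0.70 ± 0.06 (adjusted p = 5.3e-11) for PSMC4, with PSMC2 at 0.65 and PSMC1 at 0.61. PSMC5 had the smallest rise at 12 h. It had 329 and 352 CPM in DMF libraries, against 296 and 311 CPM in control libraries, a log2 fold change of 0.17 ± 0.06 (adjusted p = 0.025), while the replicate 3 libraries, scaled with all 24, had 724 CPM in DMF, against 868 CPM in control, the opposite order. The call was lost without replicate 1 of control (adjusted p = 0.18) or replicate 2 of DMF (adjusted p = 0.26) at 12 h. Its call at 6 h was lost without replicate 1 of control at 6 h (adjusted p = 0.056). PSMC2 was the only member with counts that were not whole, in 20 of 24 libraries, the mark of reads that RSEM divided between features, and its values are uncertain to that extent.

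The non-ATPase genes of the 19S particle rose in 7, 10, 7 and 10 of 11, with medians of 0.20, 0.38, 0.20 and 0.49, and they included the highest member at 6, 12 and 48 h. PSMD14 (chr2:161308038-161411717, plus strand), the deubiquitinase that removes ubiquitin chains from substrates, had 145, 151 and 144 CPM in DMF libraries, against 106, 97.6 and 102 CPM in control libraries at 6 h, a log2 fold change of 0.52 ± 0.05 (adjusted p = 1.6e-09). At 12 h PSMD14 had 208 and 202 CPM in DMF libraries, against 108 and 112 CPM in control libraries, a 1.86-fold level and a log2 fold change of 0.90 ± 0.06 (adjusted p = 3.3e-12). The replicate 3 libraries of 12 h, scaled with all 24, showed 256 CPM in DMF, against 137 CPM in control. The effect was smaller later, at 0.34 ± 0.05 (adjusted p = 1.5e-06) at 24 h and 0.40 ± 0.05 (adjusted p = 3.3e-07) at 48 h. All DMF libraries of PSMD14 lay above all control libraries at each time. PSMD14 was called at 6, 12 and 48 h in the fit of all 24 libraries as well.

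PSMD11, a scaffold subunit of the 19S lid, had 307, 315 and 320.2 CPM in DMF libraries, against 222, 229 and 232 CPM in control libraries at 6 h, a log2 fold change of 0.47 ± 0.04 (adjusted p = 5.9e-11). At 12 h it had 373 and 385 CPM in DMF libraries, against 234 and 241 CPM in control libraries, a log2 fold change of 0.67 ± 0.04 (adjusted p = 3.3e-12). The replicate 3 libraries showed 348 CPM in DMF, against 213 CPM in control. At 24 h PSMD11 had 185, 185 and 183 CPM in DMF libraries, against 156, 159.7 and 165 CPM in control libraries, and the log2 fold change was 0.20 ± 0.04 (adjusted p = 3.3e-05). At 48 h it had 133, 139.6 and 139 CPM in DMF libraries, against 80.5, 82.2 and 76.3 CPM in control libraries, a log2 fold change of 0.79 ± 0.04 (adjusted p = 3.1e-15). The DMF libraries lay above the control libraries at each time, and both were lower at 24 and 48 h than at 6 h. PSMD11 was called at all 4 times in the fit of all 24 libraries.

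PSMD2 and PSMD1, the large base subunits that dock ubiquitin receptors and shuttle factors, rose most at 48 h. PSMD2 had 374, 382 and 371 CPM in DMF libraries, against 326, 326 and 328 CPM in control libraries at 6 h, a log2 fold change of 0.20 ± 0.04 (adjusted p = 0.00021). It had 585 and 593 CPM in DMF libraries, against 459 and 480.2 CPM in control libraries at 12 h, a log2 fold change of 0.33 ± 0.05 (adjusted p = 5.3e-06). It had 579, 564 and 548 CPM in DMF libraries, against 416, 409.8 and 418 CPM in control libraries at 24 h, a log2 fold change of 0.44 ± 0.04 (adjusted p = 9.6e-10). By 48 h it had 416, 412 and 391 CPM in DMF libraries, against 219, 229.9 and 199.7 CPM in control libraries, a 1.87-fold level and a log2 fold change of 0.91 ± 0.04 (adjusted p = 9.3e-16). The log2 fold change of PSMD2 was higher at each later time, and the groups overlapped at none. PSMD1 had 159.6, 159 and 148 CPM in DMF libraries, against 91.9, 87.4 and 73.4 CPM in control libraries at 48 h, a log2 fold change of 0.88 ± 0.06 (adjusted p = 4.9e-13), after 0.11 ± 0.05 (adjusted p = 0.072) at 24 h, which did not pass. PSMD7, the partner of PSMD14 in the lid, had 0.12 ± 0.05 (adjusted p = 0.051), 0.02 ± 0.06 (adjusted p = 0.86) and 0.04 ± 0.05 (adjusted p = 0.52) at 6, 12 and 24 h and passed at 48 h, at 0.62 ± 0.05 (adjusted p = 1.1e-10). PSMD3, another lid subunit, rose at 6 and 12 h and had 0.01 ± 0.04 (adjusted p = 0.81) at 24 h and 0.05 ± 0.04 (adjusted p = 0.35) at 48 h.

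**Figure D2:**
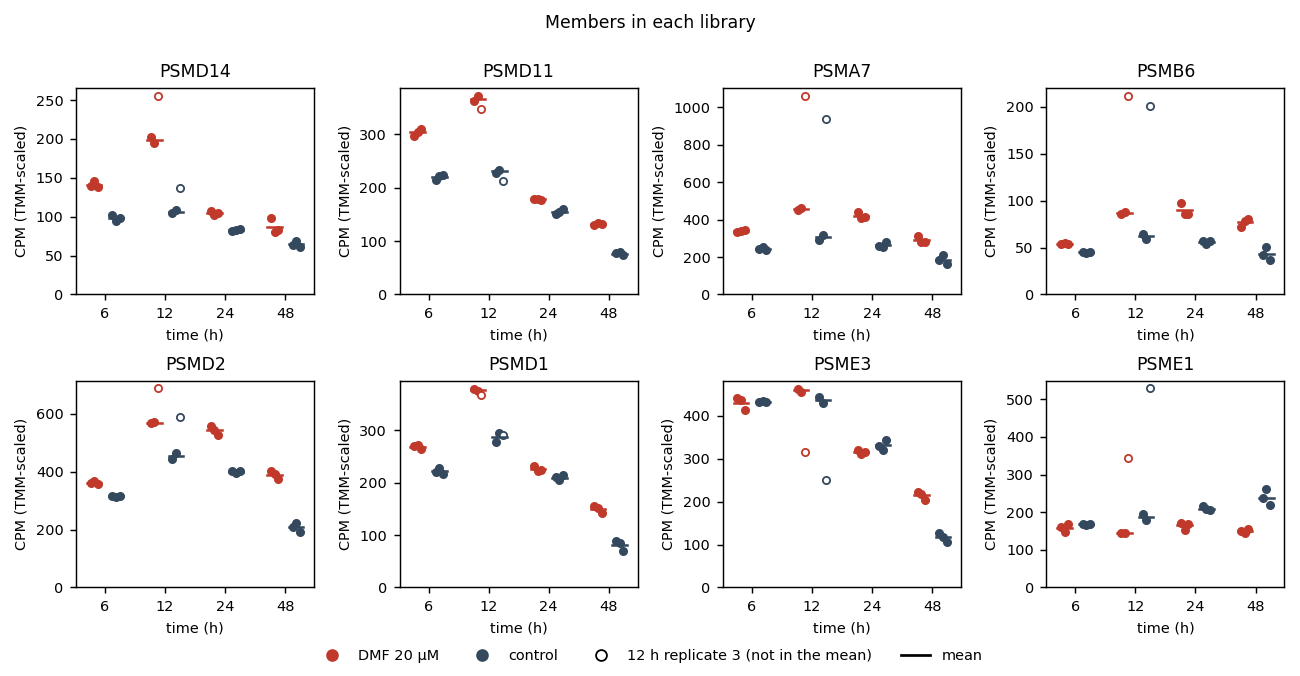
TMM-scaled CPM (vertical axes, from 0) of 8 members in each library at 6, 12, 24 and 48 h, DMF in red and control in grey, with lines for means and open circles for the replicate 3 libraries of 12 h, which are not in the means. DMF libraries lie above control libraries in PSMD14, PSMD11, PSMA7, PSMB6, PSMD2 and PSMD1 at every time, and in PSME3 at 48 h, and below them in PSME1 at 12, 24 and 48 h, among the filled points of the same time.

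Of the 4 activator genes none rose at 6, 12 or 24 h and 2 rose at 48 h, while 0, 2, 3 and 1 fell at the 4 times. PSME1 and PSME2, the interferon-inducible subunits of the PA28 activator, lie close to each other on chromosome 14. PSME1 (chr14:24136158-24138967, plus strand) had 165, 153 and 174 CPM in DMF libraries, against 175, 171 and 174 CPM in control libraries at 6 h, where the groups overlapped and the log2 value of -0.08 ± 0.05 (adjusted p = 0.23) did not pass. By 12 h it had 150.3 and 152 CPM in DMF libraries, against 202 and 184 CPM in control libraries, a log2 fold change of -0.36 ± 0.07 (adjusted p = 8.1e-05). At 24 h PSME1 had 177, 159.9 and 175 CPM in DMF libraries, against 223, 215 and 213 CPM in control libraries, a log2 fold change of -0.34 ± 0.05 (adjusted p = 5.9e-06). At 48 h it had 155, 151 and 162 CPM in DMF libraries, against 247, 269.8 and 228 CPM in control libraries, a log2 fold change of -0.67 ± 0.06 (adjusted p = 1.3e-10), or 1.59-fold lower. The replicate 3 libraries of 12 h kept the order, with 343 CPM in DMF, against 529 CPM in control. In the fit of all 24 libraries PSME1 was called at no time (adjusted p = 0.15 to 0.96).

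PSME2 (chr14:24143362-24147570, minus strand) had 111, 116 and 119 CPM in DMF libraries, against 129, 119 and 121 CPM in control libraries at 6 h, a log2 fold change of -0.10 ± 0.07 (adjusted p = 0.25). At 12 h it had 137 and 145 CPM in DMF libraries, against 166 and 165 CPM in control libraries, a log2 fold change of -0.23 ± 0.08 (adjusted p = 0.019). At 24 h it had 191, 166 and 177 CPM in DMF libraries, against 200.2, 199.7 and 207 CPM in control libraries, a log2 fold change of -0.18 ± 0.06 (adjusted p = 0.017). At 48 h it had 151, 161 and 161 CPM in DMF libraries, against 155, 183 and 138 CPM in control libraries, and the log2 fold change was 0.00 ± 0.07 (adjusted p = 0.96). The DMF libraries were below the control libraries at 12 and 24 h, narrowly so at 6 h, where the test was not passed, and overlapped them at 48 h. The call at 12 h was lost without either control library (adjusted p = 0.072 and 0.066) or without replicate 1 of DMF (adjusted p = 0.12), and that at 24 h without replicate 3 of control (adjusted p = 0.059) or replicate 2 of DMF (adjusted p = 0.10). Without replicate 2 of control at 48 h PSME2 passed as higher there, at 0.13 (adjusted p = 0.035).

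PSME3, the nuclear PA28 gamma activator, passed the test at 48 h and at no other of the 4 times. It had 457, 452 and 428 CPM in DMF libraries, against 446, 451 and 449 CPM in control libraries at 6 h, with overlap, and a log2 fold change of -0.01 ± 0.04 (adjusted p = 0.87). At 12 h it had 478 and 473 CPM in DMF libraries, against 459 and 443 CPM in control libraries, and at 24 h 332, 322 and 328 CPM in DMF libraries, against 342, 330.4 and 356 CPM in control libraries, with log2 fold changes of 0.08 ± 0.05 (adjusted p = 0.26) and -0.07 ± 0.04 (adjusted p = 0.22). At 48 h PSME3 had 230.4, 227 and 215 CPM in DMF libraries, against 132, 123 and 112 CPM in control libraries, and a log2 fold change of 0.87 ± 0.05 (adjusted p = 2.6e-14), a call also made in the fit of all 24 libraries. PSME4, which encodes the nuclear activator PA200, had 177, 171 and 159 CPM in DMF libraries, against 174, 169 and 182 CPM in control libraries at 6 h, a log2 fold change of -0.05 ± 0.05 (adjusted p = 0.44). Its values at 12 h were 246 and 229.7 CPM in DMF libraries, against 223 and 211 CPM in control libraries, a log2 fold change of 0.13 ± 0.06 (adjusted p = 0.082). At 24 h PSME4 had 161, 178 and 168 CPM in DMF libraries, against 185, 183 and 193 CPM in control libraries, a log2 fold change of -0.14 ± 0.05 (adjusted p = 0.017), a call lost without replicate 3 of control (adjusted p = 0.075) or replicate 1 of DMF (adjusted p = 0.088). At 48 h it had 164, 177 and 163 CPM in DMF libraries, against 142, 127 and 132 CPM in control libraries, a log2 fold change of 0.34 ± 0.05 (adjusted p = 4.3e-06). PSME4 thus lay below control at 24 h and above it at 48 h, with no overlap at either.

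In the fit of 22 libraries the effect of DMF differed between times for most members, as it did for most of all genes. In a joint test of the 4 effects 28 of 35 genes were called, against 69.1% of all genes. In the fit of all 24 libraries 5 of 35 were called, against 2015 of the 13419 genes tested there. The share of the members was near that of all genes there, so a difference between times was not particular to the members. At 12 h against 6 h the effect was higher for 9 genes and lower for 1, against 6.83% and 7.86% of all genes. Leaving out 1 library gave 1 to 11 higher and 0 to 1 lower, with 1 higher without replicate 2 of DMF at 12 h, 4 without replicate 1 or 2 of DMF at 6 h or replicate 2 of control at 12 h, and 5 without replicate 3 of control at 6 h. The fit of 24 by edgeR gave none, with 4 and 0 at an unadjusted p under 0.05, where 0.119% and 0.447% of all genes were called. PSMD14 was among the 9, with a difference of 0.37 ± 0.08 (adjusted p = 0.0012), and PSME1 was the 1 that was lower, with a difference of -0.28 ± 0.09 (adjusted p = 0.031). PSME1 lost this call without any 1 of 6 libraries. The effect at 24 h was higher than at 6 h for 9 genes and lower for 5 (3 without replicate 3 of control at 24 h), against 22.5% and 21.9% of all genes. The 9 of 35 are near that share and the 5 below it. The fit of 24 called none, with 0 higher and 1 lower at an unadjusted p under 0.05, where 3.59% and 2.89% of all genes were called. The largest differences were those of PSMB6 at 0.42 ± 0.10 (adjusted p = 0.0013) and PSMB4 at 0.33 ± 0.07 (adjusted p = 4e-04).

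The effect at 48 h was higher than at 24 h for 11 genes and lower for 7, against 21.2% and 20.0% of all genes, and higher than at 6 h for 16 and lower for 6, against 26.7% and 24.2%. The 7 and the 6 that were lower are at or below the shares of all genes. In the fit of 24 the counts higher and lower were 4 and 0 against 24 h (1.65% and 1.47% of all genes) and 5 and 0 against 6 h (6.47% and 5.88%), and no member was lower at an unadjusted p under 0.05. The 3 smallest p-values of the joint test were those of PSME3, PSMD2 and PSMD11. The effect at 48 h minus that at 24 h was 0.94 ± 0.07 (adjusted p = 7.7e-11) for PSME3, 0.46 ± 0.06 (adjusted p = 6.7e-07) for PSMD2 and 0.59 ± 0.05 (adjusted p = 4.3e-09) for PSMD11. The 11 genes with the higher effect at 48 h were PSMA4, PSMC2, PSMC4, PSMD1, PSMD2, PSMD6, PSMD7, PSMD11, PSMD12, PSME3 and PSME4, of which only PSMA4 belongs to the 20S core. The 7 with the lower effect were PSMA2, PSMA6, PSMB1, PSMB4, PSMB5, PSMB7 and PSME1, and 6 of these belong to the 20S core. The count-weighted effective length also differed between treatments at these times. At 24 h it was 2890 to 3028 bases in DMF, against 3088 to 3099 bases in control. At 48 h it was 3091 to 3157 bases in DMF, against 2850 to 3054 bases in control. Its part in these differences was not tested. The count lower against 6 h was 2 without replicate 3 of DMF at 6 h and 3 without any 1 of replicate 1 of DMF or 2 of control at 6 h, replicates 2 and 3 of DMF or 1 and 2 of control at 48 h. Leaving out replicate 3 of control at 48 h gave 12 genes with a lower effect at 48 h than at 24 h, and leaving out replicate 2 gave 4.

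Subcomplexes were also followed as the median over members of the log2 ratio to the mean of control at 6 h, in each library. The ATPases stood at 0.66 to 0.70 in DMF at 12 h, against 0.30 to 0.34 in control. At 48 h they stood at -0.14 to -0.02 in DMF, against -0.82 to -0.55 in control. For the alpha ring at 48 h the values were -0.21 to -0.12 in DMF, against -0.51 to -0.19 in control, so the groups met there. The beta ring met as well, at -0.10 to 0.02 in DMF, against -0.31 to -0.07 in control. The non-ATPase genes at 48 h lay at -0.41 to -0.31 in DMF, against -0.72 to -0.51 in control. In replicates 1 and 2 of 12 h the DMF libraries were above those of every other time for the ATPases. At 48 h the DMF libraries were at or below control at 6 h for the ATPases, the alpha ring and the non-ATPase genes.

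**Figure D3:**
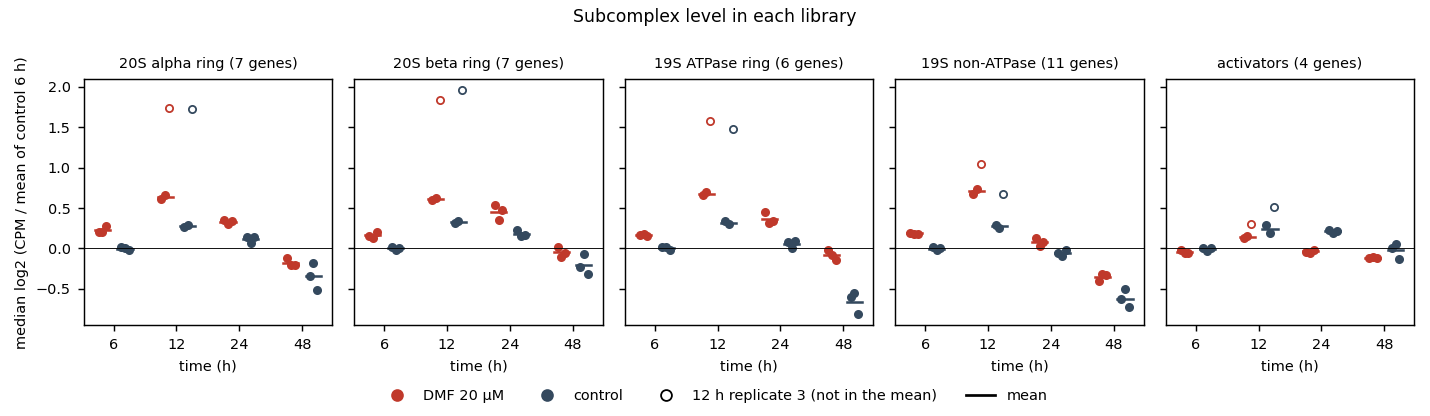
Median over the members of each subcomplex of log2 (CPM over the mean CPM of control at 6 h), by library and time, DMF in red and control in grey, lines for means. Open circles are the replicate 3 libraries of 12 h, which stand above the other libraries of their treatment in the 20S and 19S panels and are not in the means; DMF lies above control in the 19S panels at every time and below it in the activator panel at 12 and 24 h.

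Control cultures without DMF also changed their proteasome mRNA over time. At 12 h 30 of 35 genes were higher than in control at 6 h and none lower, by edgeR or DESeq2 or at an unadjusted p under 0.05, against 21.1% and 18.5% of all genes, and 27 were higher in the fit of 24, against 12.0% and 6.84%. The fit of 24 includes replicate 3 of control at 12 h. The median of its 26S subunits over control at 6 h was 1.562, against 0.32 and 0.29 in replicates 1 and 2. At 24 h 14 were higher and 7 lower, against 28.8% and 27.7%, with 1 and 2 in the fit of 24, against 9.29% and 7.53%. At 48 h 3 were higher and 27 lower, against 38.2% and 36.8% of all genes, with 0 and 13 in the fit of 24 (0 and 15 at an unadjusted p under 0.05), against 21.6% and 20.4%, and the median log2 fold change was -0.43 while that of all genes was 0.02. The falls at 48 h were deepest for PSME3, PSMD11, PSMD1 and PSMD12, at -1.88 ± 0.05 (adjusted p = 2.3e-21), -1.52 ± 0.04 (adjusted p = 2.3e-21), -1.45 ± 0.05 (adjusted p = 4.4e-18) and -1.20 ± 0.05 (adjusted p = 1.2e-17). PSMD1 had 91.9, 87.4 and 73.4 CPM in control libraries at 48 h, against 228, 236 and 225 CPM in control libraries at 6 h. The 3 genes that were higher at 48 h were PSME1, PSME2 and PSMA2, at 0.52 ± 0.05 (adjusted p = 3.3e-09), 0.36 ± 0.07 (adjusted p = 2.1e-05) and 0.19 ± 0.08 (adjusted p = 0.026). The ATPases fell in 6 of 6, the non-ATPase genes in 10 of 11, the beta ring in 5 of 7 and the alpha ring in 4 of 7.

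The control course and the DMF effect at 48 h share the control libraries of 48 h, so a gene low in those libraries scores low in one and high in the other. Side by side, PSME3 had -1.88 in the control course and 0.87 under DMF at 48 h, PSMD11 -1.52 and 0.79, PSMD1 -1.45 and 0.88, and PSME1 0.52 and -0.67. The control cultures of 6 h also differed from later ones in HMOX1, with 183 to 200.4 CPM at 6 h, 42.8 to 46.4 CPM at 12 h, 25.3 to 27.8 CPM at 24 h and 33.1 to 35.9 CPM at 48 h. Its part in the course of the proteasome genes was not tested.

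**Figure D4:**
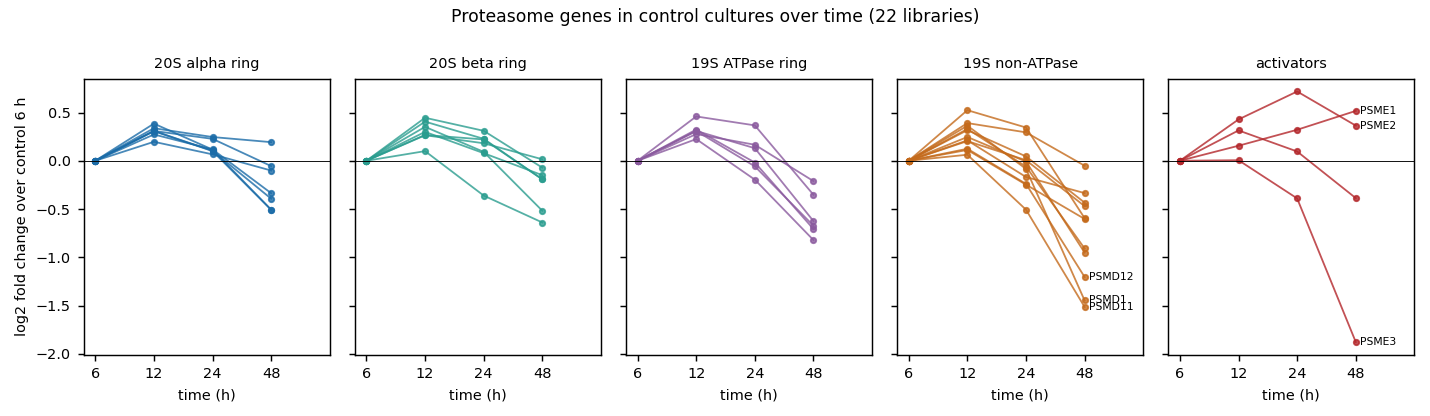
Log2 fold change of each member in control cultures at 12, 24 and 48 h over control at 6 h (vertical axis) against time (horizontal axis, times evenly spaced), 1 panel per subcomplex, 22 libraries. Most lines lie above 0 at 12 h and below it at 48 h; PSME3, PSMD11, PSMD1 and PSMD12 are lowest at 48 h, and PSME1 and PSME2 end above 0.

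Levels between genes were compared per length, on deposited TPM in control at 6 h (mean ± SD, n = 3). PSMB3 was highest with 560.3 ± 9.91 TPM, followed by PSMA7 with 509 ± 11.8 TPM and PSMB4 with 497 ± 8.36 TPM, whose ranges overlapped. PSMB2 was lowest with 34.0 ± 1.07 TPM, then PSME4 with 39.6 ± 1.89 TPM and PSMD12 with 57.9 ± 2.43 TPM. The mRNA levels of the 7 alpha genes ranged from 61.8 ± 1.92 TPM for PSMA5 to those of PSMA7. Among the catalytic genes PSMB5 had 277 ± 12.9 TPM, PSMB7 256 ± 9.25 TPM and PSMB6 123 ± 1.52 TPM. PSMB6, at 6 h the lowest of these 3, had the highest log2 fold change of them at 24 and 48 h. The TPM of the 35 genes summed to 8081 ± 60.8 in DMF, against 7941 ± 48.0 in control at 6 h, and to 8415 ± 143 in DMF, against 6111 ± 251 in control at 48 h (SD, n = 3 each), sums that carry the shift of all genes given above.

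The inducible counterparts of the catalytic subunits were lower in DMF, all 3 at each time, where 23.4%, 23.8%, 27.9% and 30.9% of all genes were lower. PSMB8, PSMB9 and PSMB10 fell at all 4 times, with log2 fold changes of -0.29, -0.24 and -0.23 at 6 h and -0.86, -1.21 and -0.73 at 12 h. At 48 h the TPM ratio of PSMB5 to PSMB8 was 4.83 ± 0.695 in DMF, against 1.78 ± 0.0668 in control, that of PSMB6 to PSMB9 8.13 ± 0.387 in DMF, against 2.05 ± 0.152 in control, and that of PSMB7 to PSMB10 1.97 ± 0.0546 in DMF, against 0.930 ± 0.0218 in control (SD, n = 3 each). At 12 h, with the replicate 3 libraries included, the ratio of PSMB6 to PSMB9 was 14.8 ± 1.35 in DMF, against 4.65 ± 0.233 in control. At each time the DMF libraries exceeded the control libraries in all 3 ratios, with no overlap. A two-sided exact permutation test gave p = 0.1 in each of the 12 comparisons, and 0.1 after Benjamini-Hochberg adjustment, the smallest that 3 libraries against 3 allow.

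**Figure D5:**
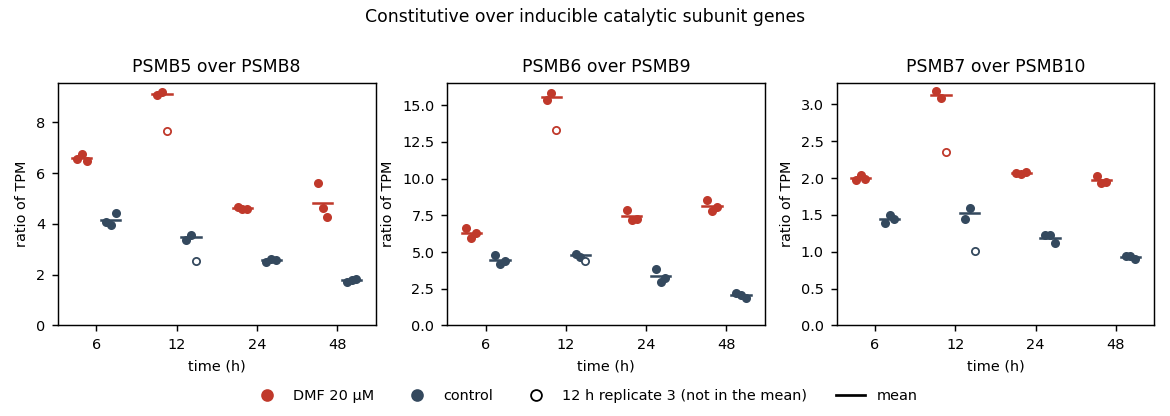
Ratio of deposited TPM (vertical axes, from 0) of the constitutive over the inducible gene of each catalytic pair, by library and time, DMF in red and control in grey, with lines for means and open circles for the replicate 3 libraries of 12 h. All DMF points lie above all control points of the same time in the 3 panels, and the DMF points are highest at 12 h.

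Genes around the proteasome were described from lists of ubiquitin genes, assembly chaperones, proteasome-bound proteins, shuttle factors and regulators. Their counts stand beside 23.8%, 24.1%, 29.5% and 33.6% of all genes higher, and 23.4%, 23.8%, 27.9% and 30.9% lower, at 6, 12, 24 and 48 h. UBB, a polyubiquitin gene, rose at all 4 times, with log2 fold changes of 0.32, 0.38, 0.21 and 0.16. At 6 h UBB had 752, 721 and 771 CPM in DMF libraries, against 613, 569 and 619.6 CPM in control libraries. RPS27A, a ubiquitin-ribosomal fusion gene, rose at 6 h with 0.26 ± 0.07 (adjusted p = 0.0049) and fell at 48 h with -0.72 ± 0.07 (adjusted p = 4.4e-09). Of the 9 genes for proteasome-bound proteins 8, 6, 3 and 7 rose at 6, 12, 24 and 48 h and 0, 0, 1 and 1 fell, so that the share that rose at 24 h was near that of all genes. ADRM1, a ubiquitin receptor of the 19S particle, had log2 fold changes of 0.30, 0.45, 0.45 and 0.89. AKIRIN2, which carries proteasomes into the nucleus, had 0.46, 0.70, 0.22 and 0.23, all called. ECPAS, a proteasome adaptor, rose at 6, 12 and 48 h, with 0.60 at 12 h, and TXNL1, a thioredoxin bound to the 19S particle, rose by 0.48 at 12 h and fell by 0.40 at 48 h on the log2 scale.

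Of the 8 assembly chaperones tested 3, 2, 3 and 5 rose and 2, 2, 3 and 2 fell at the 4 times, which at 12 h was near the shares of all genes in both directions, and the ninth, PSMD9, was listed at 0 in every library. POMP, a chaperone of 20S core assembly, rose at all 4 times, by 0.39, 0.43, 0.52 and 0.47. PAAF1, a base chaperone, rose at all 4 times as well, most at 24 h with 0.68. The alpha ring chaperones PSMG2 and PSMG4 fell, PSMG2 at 12, 24 and 48 h with -0.80 at 48 h, and PSMG4 at all 4 times with -1.03 at 12 h. Not all alpha ring chaperones did so. On unscaled TPM at 48 h PSMG1 had 95.6, 102 and 94.5 in DMF, against 73.4, 67.6 and 67.2 in control. PSMG3 had 75.7, 77.0 and 82.8 TPM in DMF, against 61.1, 58.8 and 54.9 TPM in control there, but was lower in DMF at 6 h. Of 10 shuttle and unfolding factors 6, 8, 6 and 7 rose and 1 fell at each time. NPLOC4, a cofactor of the unfoldase VCP, rose by 0.33, 0.62, 0.22 and 0.93, and VCP by 0.40, 0.64, 0.29 and 0.50. ZFAND5, a proteasome-binding factor, rose by 0.65 at 6 h, and the ubiquilin UBQLN4 fell by 0.12 at 6 h and rose by 0.59 at 48 h on the log2 scale.

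Of the regulators, NFE2L1, the transcription factor of the proteasome recovery response, had 381, 395 and 387 CPM in DMF libraries, against 239, 255 and 249.8 CPM in control libraries at 6 h, a log2 fold change of 0.65 ± 0.04 (adjusted p = 2.4e-12). Its log2 fold changes were 0.31 at 12 h, -0.29 at 24 h and 0.21 at 48 h, all called, so it lay below control at 24 h. NFE2L2, the gene of NRF2, had 113, 108 and 109.9 CPM in DMF libraries, against 64.6, 60.6 and 67.5 CPM in control libraries at 6 h, a log2 fold change of 0.78 ± 0.05 (adjusted p = 5.7e-12). It had 0.63 ± 0.06 (adjusted p = 1.1e-08) at 12 h, -0.03 ± 0.05 (adjusted p = 0.72) at 24 h and 0.34 ± 0.06 (adjusted p = 1.7e-05) at 48 h. DDI2, the protease that cleaves NFE2L1, fell at 24 h with -0.62 ± 0.12 (adjusted p = 0.00015) and rose at 48 h with 0.37 ± 0.14 (adjusted p = 0.024). NGLY1, the glycanase that acts on NFE2L1, had 0.02 ± 0.04 (adjusted p = 0.76) at 6 h and fell at 48 h with -0.72 ± 0.05 (adjusted p = 4e-13). These are mRNA levels, and no protein or proteasome activity was measured in the data used here.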

How the data were processed

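RNA-seq libraries of HBL-1 cells were analysed from gene tables that hold expected counts and TPM per library. The expected counts, the authors' RSEM estimates of reads per gene per the file headers, are not normalized. TPM was deposited by the authors, relative to the library total and per effective length. HISAT2, HISAT and RSEM on GRCh38.p12 are named in the submitters' processing notes; versions, strand setting and filters are not given in the sources used here.

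The expected counts were rounded here, filtered by group with filterByExpr, scaled by TMM and tested with edgeR 4.0.16 (quasi-likelihood F-test, R 4.3.3), with 1 mean per group of treatment and time, in 22 libraries without replicate 3 of 12 h in either treatment. Adjustment was by Benjamini-Hochberg across the 13606 genes kept, and an adjusted p under 0.05 was called. Standard errors are the log2 fold change over the square root of F. CPM are TMM-scaled; those of the 12 h replicate 3 libraries come from a scaling of all 24.

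Total counts were 2870751 in 1 library and 23097873 to 40906596 in the others, which sets the precision of single values; no interval is given beyond the spread of replicates. Groups came from the labels. Alternatives were all 24 libraries, DESeq2 1.42.0 size factors, DESeq2 itself, no count filter, a replicate block, the compared groups alone, limma 3.58.1 on log2(TPM + 1), the same on TPM scaled by size factors (added after seeing the data), and each library left out. The code was tested on simulated data.

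Values in every library are given for, at each time, the 3 called members with the highest and the 3 with the lowest log2 fold change, the 3 with the smallest joint p and the 4 activators. Lists of 4 or fewer other genes are named whole, longer ones by their 4 smallest p-values. A few items, and the list results that need them, are not reported here. Members, lists and tests were chosen with earlier results of these data known. Deposited FPKM were not used here.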

Additional observations from a re-analysis of the deposited data

Results flagged for a closer look

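The effect of DMF on proteasome genes was tested for a difference between times within 1 model of 22 libraries, and these differences passed. At 12 h against 6 h, 9 members had a higher effect and 1 a lower one, against 6.83% and 7.86% of all genes. At 24 h against 6 h, 9 had a higher effect and 5 a lower one, against 22.5% and 21.9%. Here the 9 of 35 are near the share of all genes and the 5 below it, and the fit of all 24 libraries called none. At 48 h against 6 h, 16 had a higher effect and 6 a lower one, against 26.7% and 24.2%, where the 6 of 35 are below the share of all genes. At 48 h against 24 h, 11 had a higher effect and 7 a lower one, against 21.2% and 20.0%; the 7 of 35 are at the share of all genes. In the joint test of all 4 times 28 members were called, against 69.1% of all genes, so most genes of either kind differed between times. In the fit of all 24 libraries it called 5 members, near the share of all genes there. The effect at 48 h minus that at 24 h was 0.94 on the log2 scale for PSME3, 0.46 for PSMD2 and 0.59 for PSMD11. The control libraries of 48 h enter each difference that involves 48 h, and PSME3, PSMD2 and PSMD11 were lower in control at 48 h than in control at 6 h, by -1.88, -0.60 and -1.52. The part of these control changes in the differences was not tested. Nor was that of the count-weighted effective length, shorter in DMF than in control at 24 h and longer at 48 h.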

How the results depend on the processing

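With all 24 libraries the members higher and lower in DMF numbered 3 and 0 for 6 h, 9 and 0 for 12 h, 3 and 0 for 24 h, and 11 and 0 for 48 h. For the difference of effects they were 0 and 0 (12 h minus 6 h), 0 and 0 (24 h minus 6 h), 5 and 0 (48 h minus 6 h) and 4 and 0 (48 h minus 24 h), and 5 in the joint test; for control against 6 h the counts were 1 and 2 for 24 h and 0 and 13 for 48 h. This fit has a common dispersion of 0.0521, against 0.00212 without the 2 libraries. Of the values called without those libraries at 12 h, it turned PSMB7 to -0.0674, PSMC3 to -0.21, PSMC5 to -0.0757 and UFD1 to -0.0194, none past the threshold.

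On unscaled TPM 6 members were higher and 5 lower at 6 h, and the differences of effects were higher for 15 (12 h minus 6 h), higher and lower for 16 and 2 (24 h minus 6 h), 32 and 1 (48 h minus 6 h) and 26 and 0 (48 h minus 24 h). Of values called on either scale, it turned PSMB2 to -0.026, PSMC3 to -0.10, PSMG1 to -0.014, UCHL5 to -0.22, PSMF1 to -0.0601 and NGLY1 to -0.13 at 6 h, and PSMA2 to 0.20, PSMA6 to 0.14, PSMD10 to 0.24 and UBQLN2 to 0.18 at 48 h, beside its shift of all genes, and 9 further members changed sign at 6 h with a call on neither scale. Scaled TPM gave 5 and 0 for 12 h minus 6 h, where the cause was not tested. With only the groups compared, 1 member was lower at 6 h; these fits hold fewer samples.

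Leaving out 1 library gave 19 to 25 higher and 0 lower for 6 h, 26 to 29 and 1 to 2 for 12 h, 23 to 27 and 1 to 3 for 24 h, and 21 to 30 and 1 to 3 for 48 h. The single lower gene at 12 h came without replicate 1 or 2 of control or replicate 1 of DMF, that at 24 h without replicate 3 of control, and 3 at 48 h without replicate 1 of DMF. The differences of effects ran over 1 to 11 and 0 to 1 (12 h minus 6 h, lowest without replicate 2 of DMF at 12 h), 6 to 11 and 3 to 6 (24 h minus 6 h), 14 to 20 and 2 to 7 (48 h minus 6 h), 10 to 16 and 4 to 12 (48 h minus 24 h), and 22 to 29 jointly. Control against 6 h gave 26 to 31 and 0 for 12 h, 10 to 16 and 7 for 24 h, and 2 to 3 and 25 to 30 for 48 h.

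The deviations of same-numbered DMF and control libraries had correlations of -0.054 to 0.044, so no shared deviation by number was seen. At 12 h, with 2 libraries per group, same and different numbers must give opposite signs, here 0.041 and -0.041. Low correlations cannot exclude that the cultures were paired. With a replicate block the members higher and lower were 21 and 0, 29 and 2, 26 and 3, and 25 and 1 at the 4 times, the control course gave 30 and 0, 13 and 7, and 3 and 27, and the joint test 28. Over all single-gene results of members and alternatives, 3977 kept their side of the threshold, 36 of them with a change of sign and a call in neither fit, 153 lost a call, 63 gained one and 7 turned with a call in at least 1 fit. The shallow replicate 1 of DMF at 48 h limits single values there.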
